A study of Homo sapiens with 6 samples.

Results

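Aminoacyl-tRNA synthetases are the enzymes that join each amino acid to its transfer RNA. Their genes were taken from the expression table by symbol: every gene whose symbol is a single letter followed by ARS or ARS2, together with EPRS, FARSA and FARSB. This gave 37 genes of 20111, of which 20 encode the enzymes of the cytosol and 17, whose symbols end in 2, those of the mitochondrion. The cells were MDA-MB-231, a human cell line from a triple-negative breast cancer (a form without oestrogen and progesterone receptor and without amplified HER2), and the study's title names nuclear receptors and their coregulators. They received siControl, siNCOA3 or siSHC1 and were harvested at 24 h or 48 h. The coactivator NCOA3 works with nuclear receptors, SHC1 is an adaptor that couples receptor tyrosine kinases to RAS, and siControl is the control siRNA. Each siRNA had 1 library at each time, 6 in all, so that an siRNA was replicated only across the 2 times, and a time only across the 3 siRNAs. No label tells whether separate cultures were used, so the p-values below reflect the spread among these 6 libraries alone, which may be technical. All libraries come from 1 cell line, and all cells had been transfected with some siRNA.

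Cytosolic and mitochondrial protein synthesis use separate sets of these enzymes, nearly all from separate nuclear genes. GARS and KARS are the exceptions and supply both compartments from a single gene, while mitochondrial glutaminyl-tRNA is made in an indirect route by EARS2 and an amidotransferase. In the cytosol, a group of synthetases (DARS, EPRS, IARS, KARS, LARS, MARS, QARS and RARS) is held in the multisynthetase complex by the scaffold proteins AIMP1, AIMP2 and EEF1E1, and EPRS carries the enzymes for both glutamate and proline. Many cytosolic synthetase genes are targets of ATF4, the transcription factor of the amino acid response, which is translated when uncharged transfer RNA activates the kinase GCN2 (EIF2AK4).

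ATF4 binds with C/EBP proteins at a composite element. The motif TGATGNAA, in which N is any base, was searched for on both strands of each promoter window of a gene. A window ran from 250 bases before to 50 bases after a start site (RefSeq, GRCh38.p14), and some genes have 2 windows. The sequences are shown beside the course of these genes from 24 h to 48 h in the siControl arm, described further on. Most genes that hold the motif were higher at 48 h in that arm, where 48.8% of all genes were. TARS and YARS2, which hold it too, were lower. WARS, whose windows lack it, made the largest step of the synthetases (0.51 on the log2 scale). A link between motif and course was not tested. A window was at hand for 30 of the 37 genes, under the present symbol where it differs (AARS1 for AARS). The motif was present in 8 of the 30, against 4.46% of all genes with a window (3.62% of all 35116 windows). Of the 12 cytosolic synthetases known as ATF4 targets (AARS, CARS, EPRS, GARS, IARS, LARS, MARS, NARS, SARS, TARS, WARS and YARS), 10 had a window and 7 held the motif. Of the other 8 cytosolic genes, 6 had a window and 0 held it, and of the 17 mitochondrial genes, 14 had a window and YARS2 alone held it. The list of ATF4 targets rests on earlier knowledge of ATF4 binding and is therefore not independent of the motif. It was also chosen with earlier results of these data known. Each stretch is given 5′ to 3′ on the strand of the gene, with the motif, or its reverse complement, in capitals.
AARS (chr16:70289675-70289704, minus strand): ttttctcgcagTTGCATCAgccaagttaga
CARS (chr11:3057407-3057436, minus strand): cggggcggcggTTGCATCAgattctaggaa
GARS (chr7:30594834-30594863, plus strand): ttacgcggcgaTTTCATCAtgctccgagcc
IARS (chr9:92293692-92293721, minus strand): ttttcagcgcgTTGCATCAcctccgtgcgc
MARS (chr12:57488053-57488082, plus strand): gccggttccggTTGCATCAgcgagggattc
NARS (chr18:57621804-57621833, minus strand): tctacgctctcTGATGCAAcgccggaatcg
TARS (chr5:33440956-33440985, plus strand): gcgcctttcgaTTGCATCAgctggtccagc
YARS2 (chr12:32756076-32756105, minus strand): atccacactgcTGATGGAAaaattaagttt
In 6 of the 7 cytosolic genes the match reads TGATGCAA on one strand or the other, and in GARS it reads TGATGAAA. The first base of the match lies 187 bases before the start site in AARS, 33 before it in GARS, 13 before it in IARS, 4 before it in MARS and 2 before it in CARS. In TARS and NARS it lies 2 and 14 bases after the start site. In YARS2 it lies 197 bases before it. CARS, GARS and TARS have 2 windows each and hold the match in 1 of them. Each distance is from the start site of the window that holds the match. A match of letters is a description and not a site shown to be bound.

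The values are FPKM (fragments per kilobase of transcript, relative to sequencing depth). Total FPKM per library ran from 495518 to 553073, and mitochondrially encoded transcripts held 17.3% to 18.7% of it. The targets matched the labels: NCOA3 was at 15.4% and 16.4% of its siControl level at 24 h and 48 h after siNCOA3, and SHC1 at 13.4% and 13.3% after siSHC1. All 6 markers of the line (VIM, CD44, MSN, LGALS1, S100A4 and AXL) were at 161 FPKM or more in every library. Of 10 luminal markers 6 had a mean of at least 1 FPKM, with a summed level of 439 to 591 FPKM that was mostly KRT8 and KRT18, while ESR1 was at most 0.092 FPKM and PGR was listed at 0 in all. Of markers of other cells, PTPRC reached at most 0.055 FPKM, and the summed level was between 3.25 and 7.68 FPKM for the 5 leukocyte genes, nearly all CD14, between 4.57 and 11.8 FPKM for the 4 fibroblast genes and at most 0.034 FPKM for the 2 endothelial genes in the table.

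All 37 synthetase transcripts were detected in all libraries and passed the filter on low values (at least 1 FPKM in at least 2 libraries), as did 11699 genes in all. FPKM are per length, so levels can be compared between genes. The cytosolic genes had mean levels from 20.6 to 219 FPKM (median 54.2), the mitochondrial genes from 3.16 to 47.7 FPKM (median 8.26), and all tested genes a median of 13.0 FPKM, after scaling between libraries. Values per library are deposited FPKM, while overlap between groups and the highest or lowest library were judged after scaling. TARS, the threonyl enzyme, was the highest, at 226, 215 and 235 FPKM at 24 h and 234, 213 and 198 FPKM at 48 h (siControl, siNCOA3 and siSHC1 in this order, as in all lists of 3 values below). It made up 15.9% to 18.6% of the summed level of the cytosolic synthetases. DARS, the aspartyl enzyme, came second at 109 ± 8.82 FPKM (SD over the 6 libraries). IARS at 81.5 ± 4.99, QARS at 79.5 ± 3.92 and MARS at 79.0 ± 6.11 FPKM followed, the enzymes for isoleucine, glutamine and methionine, which all belong to the multisynthetase complex and did not differ from each other beyond their spread.

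The lowest levels were all of mitochondrial enzymes. PARS2, for proline, had 3.16 ± 0.39 FPKM, MARS2, for methionine, 4.73 ± 0.97, YARS2, for tyrosine, 5.51 ± 1.03, NARS2, for asparagine, 5.84 ± 0.94, and EARS2, for glutamate, 5.96 ± 0.74 FPKM. For the last 4 the ranges of 1 SD around the mean overlap. IARS2, the mitochondrial enzyme for isoleucine, stood apart from the others of its compartment at 47.7 ± 1.43 FPKM, above the means of 9 cytosolic genes, and had the smallest coefficient of variation of all 37. In 14 amino acids with 1 cytosolic and 1 mitochondrial gene of the same letter, the cytosolic transcript was the higher in every library. The ratio ran from 1.06 (CARS over CARS2, siNCOA3 at 48 h) to 24.3 (MARS over MARS2, siControl at 48 h). The relative spread over libraries was smaller for the cytosolic genes, with a median coefficient of variation of 8.30%, than for the mitochondrial ones, with 12.3%. Most mitochondrial genes also had lower levels, and spread due to level was not separated from compartment.

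**Figure D1:**
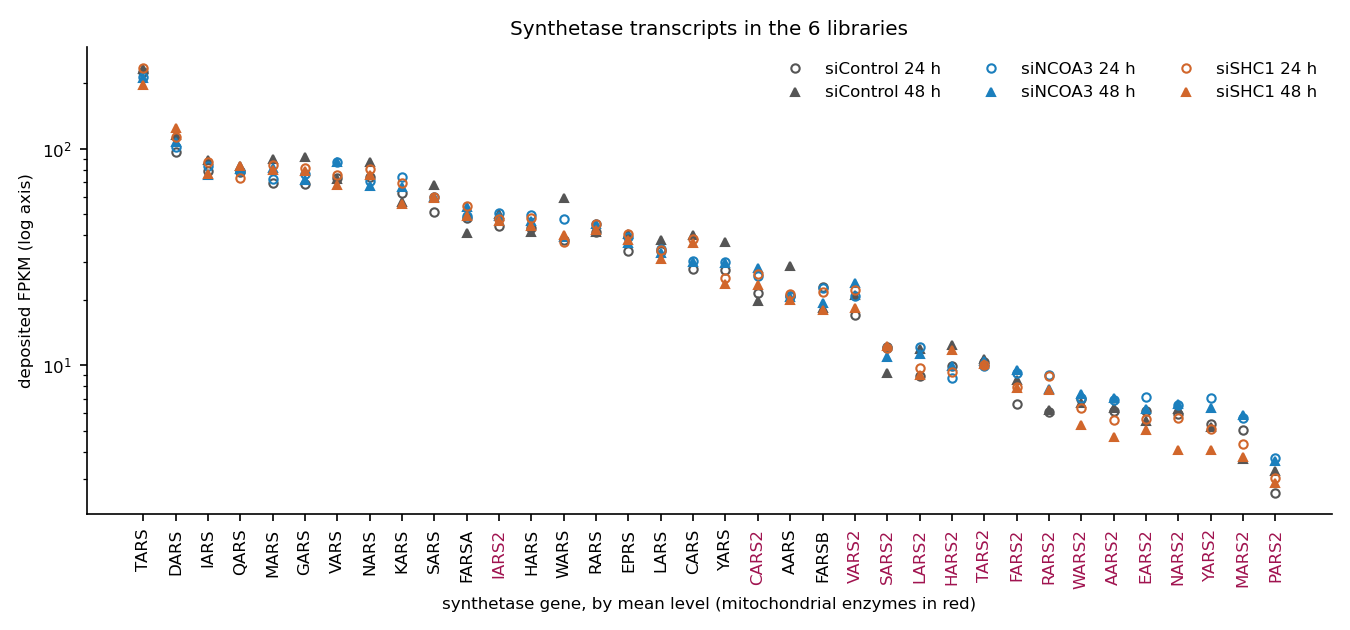
Deposited FPKM (log axis) of 36 of the 37 synthetase genes, ordered by mean level, with 1 symbol for each of the 6 libraries; mitochondrial genes are named in red. TARS is highest, and apart from IARS2 and CARS2 the mitochondrial genes have mean levels, after scaling, below every cytosolic gene.

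The comparison of siNCOA3 with siControl asks how synthetase transcripts stand when NCOA3 is reduced. No synthetase passed the test over all genes: 0 of 37 were called (limma, Benjamini-Hochberg adjusted p under 0.05), where 0.111% of all genes were. At an unadjusted p under 0.05 there were 7 of 37, where 10.5% of all genes were: 4 were higher, against 4.78% of all genes, and 3 lower, against 5.75%. The fitted log2 changes, on the scale of log2(scaled FPKM + 1), had medians of opposite sign in the cytosolic and the mitochondrial genes. Of the 17 mitochondrial genes 15 lay above 0, with a median of 0.12, and of the 20 cytosolic genes 5 lay above 0, with a median of -0.08, while 50.8% of all tested genes lay above 0 with a median of 0.003. The median of the cytosolic genes was thus 0.20 lower than that of the mitochondrial ones, and this difference was -0.10 when the 48 h library of siControl was left out, and again for that of siNCOA3. At 24 h the cytosolic median was -0.02, with 10 of 20 above 0, and at 48 h it was -0.12, with 6 of 20. The mitochondrial median was 0.08 and 0.14, with 13 of 17 above 0 at each time. Of all genes 50.3% and 50.8% lay above 0.

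RARS2, the mitochondrial arginyl enzyme, had 6.06 and 6.25 FPKM in the siControl libraries of 24 h and 48 h and 9.02 and 7.81 FPKM after siNCOA3. Both siNCOA3 libraries lay above both siControl libraries, and the fitted change was 0.35 ± 0.10 (± SE, 2 libraries for each siRNA, limma adjusted p = 0.36). CARS2, for cysteine, stood at 25.9 against 21.6 FPKM in siControl at 24 h and at 28.2 against 19.9 FPKM at 48 h, without overlap, with a fitted change of 0.32 ± 0.11. MARS2 went from 5.04 to 5.72 and from 3.69 to 5.88 FPKM, with a fitted change of 0.31 ± 0.15, and the siControl library of 48 h was the lowest of the 6. Without that library the change of MARS2 was 0.11, without the siNCOA3 library of 48 h 0.14, and without either library of 24 h 0.49 or more. CARS2 stood at 0.16 and 0.48 without the siNCOA3 library of 48 h and of 24 h. In 8 of the 17 mitochondrial genes both siNCOA3 libraries lay above both siControl libraries (AARS2, CARS2, FARS2, MARS2, NARS2, PARS2, RARS2 and YARS2), a pattern seen in 20.6% of all genes, and in HARS2 and TARS2 both lay below, as in 18.9% of all genes.

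Among cytosolic genes the largest fitted changes after siNCOA3 were in AARS, the alanyl enzyme, at -0.28 ± 0.12, NARS, the asparaginyl enzyme, at -0.25 ± 0.08, and VARS, the valyl enzyme, at 0.20 ± 0.08 (± SE over 2 libraries per siRNA; adjusted p by limma 0.47, 0.38 and 0.45). AARS stood at 21.0 and 28.8 FPKM in the siControl libraries of 24 h and 48 h and at 20.8 and 20.6 FPKM after siNCOA3, so that only the siControl library of 48 h stood apart. NARS stood at 71.0 against 73.9 FPKM in siControl at 24 h and at 67.3 against 86.6 FPKM at 48 h, and both siNCOA3 libraries lay below both siControl libraries. VARS went the other way, from 73.2 to 86.4 and from 72.5 to 87.0 FPKM, also without overlap. The count of 5 cytosolic genes above 0 became 11 without the siControl library of 48 h. It was 8 without scaling between libraries, where the median of all tested genes was 0.04. In all, 3 cytosolic genes had both siNCOA3 libraries above both siControl libraries (HARS, RARS and VARS), where 20.6% of all genes had, and 6 had both below (AARS, IARS, LARS, NARS, QARS and TARS), where 18.9% had. With 1 library left out, the change of AARS ran from -0.46 (without siControl at 24 h) to -0.10 (without siControl at 48 h). NARS stood at -0.16 without siControl at 48 h, and VARS at 0.12 without siNCOA3 at 48 h.

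The comparison of siSHC1 with siControl asks the same for SHC1. Here too 0 of 37 genes were called (limma adjusted p under 0.05), where 6.5% of all genes were (3.15% higher and 3.36% lower). At an unadjusted p under 0.05 there were 4 of 37, where 26.2% of all genes were: 1 was higher, against 13.9% of all genes, and 3 were lower, against 12.3%. Of the mitochondrial genes 5 of 17 lay above 0, with a median of -0.11, and of the cytosolic genes 8 of 20, with a median of -0.04, while 50.7% of all tested genes lay above 0. With equal library totals these counts were 3 and 4, while the median of all tested genes was -0.05, against 0.003 in the main fit. The cytosolic genes had a median of 0.03 at 24 h and -0.12 at 48 h, and the mitochondrial genes of -0.13 and -0.09. Both comparisons share the siControl libraries, so their values are given side by side and not related to each other.

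YARS, the tyrosyl enzyme of the cytosol, had the largest fitted change of the 37 genes after siSHC1. It had 27.6 and 37.0 FPKM in the siControl libraries and 25.4 and 23.7 FPKM after siSHC1, without overlap, a fitted change of -0.40 ± 0.11 that did not pass (± SE, 2 libraries for each siRNA, limma adjusted p = 0.080). WARS, the tryptophanyl enzyme, a gene known to be induced by interferon, stood at 37.1 against 37.9 FPKM in siControl at 24 h and at 39.97 against 59.0 FPKM at 48 h, a fitted change of -0.32 ± 0.17. AARS stood at 21.3 and 20.0 FPKM after siSHC1, close to its values after siNCOA3 and to siControl at 24 h, with a fitted change of -0.27 ± 0.12. In all 3 genes the siControl library of 48 h was the highest of the 6 libraries. Without it the change was -0.23 in YARS, -0.04 in WARS and -0.09 in AARS. Without the siControl library of 24 h it was -0.61 in WARS and -0.46 in AARS, and AARS stood at -0.15 without siSHC1 at 48 h.

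Of the mitochondrial genes, RARS2 had 8.95 and 7.69 FPKM after siSHC1, above both siControl libraries as after siNCOA3, with a fitted change of 0.35 ± 0.10 (± SE, 2 libraries for each siRNA, limma adjusted p = 0.095). NARS2 stood at 5.71 against 5.93 FPKM in siControl at 24 h and at 4.05 against 6.30 FPKM at 48 h, a fitted change of -0.32 ± 0.14. AARS2 went from 6.17 to 5.58 and from 6.39 to 4.65 FPKM, a fitted change of -0.29 ± 0.11. In NARS2 and AARS2 the libraries of siSHC1 and siControl did not overlap, with the lowest value in siSHC1 at 48 h. Without that library the changes were -0.12 in NARS2 and -0.19 in AARS2, and NARS2 stood at -0.52 without siSHC1 at 24 h. Both siSHC1 libraries lay below both siControl libraries in 5 mitochondrial genes, AARS2 and NARS2 among them, and 4 cytosolic genes (AARS, LARS, WARS and YARS), 9 of 37 where 23.6% of all genes did so. They lay above in CARS2 and RARS2, where 24.3% of all genes did.

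**Figure D2:**
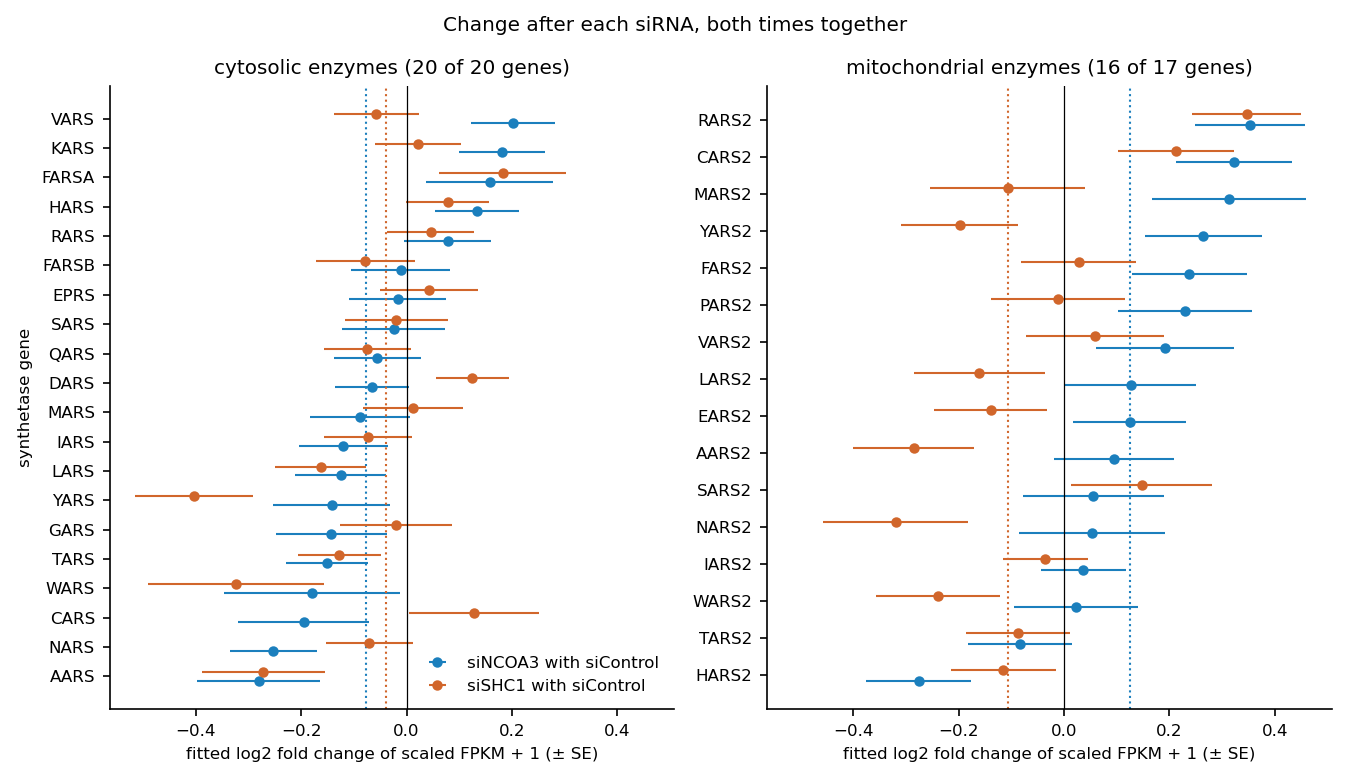
Fitted log2 fold change (± SE) of each synthetase after siNCOA3 (blue) and siSHC1 (orange) against siControl, cytosolic genes on the left and 16 of the 17 mitochondrial genes on the right; dotted lines mark the medians over all 20 and all 17. For siNCOA3 the median is -0.08 on the left and 0.12 on the right, for siSHC1 -0.04 and -0.11, and no single gene passed the test over all genes.

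The comparison of siSHC1 with siNCOA3 sets both knockdowns against each other and uses no siControl library for its fold changes. Of the 17 mitochondrial genes 15 had a fitted value below 0, with a median of -0.24, and 1 of them passed the test. Of the cytosolic genes 9 of 20 lay below 0, with a median of 0.01, and 49.9% of all tested genes lay above 0. The median of the mitochondrial genes was -0.16 at 24 h and -0.26 at 48 h. In 11 of the 17 both siSHC1 libraries lay below both siNCOA3 libraries, as in 29.2% of all genes, and in SARS2 they lay above, as in 29.3% of all genes. IARS2 was among the 11 with the smallest change, at -0.07 ± 0.08. Of the 37 genes 1 was called (limma adjusted p under 0.05), lower after siSHC1, where 9.94% of all genes were called and 4.59% were called lower, so that the share of synthetases called was below that of all genes. At an unadjusted p under 0.05 there were 9 of 37, where 29.5% of all genes were: 7 were lower, 6 of them mitochondrial, against 14% of all genes, and 2 were higher, against 15.5%.

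The called gene was YARS2, the mitochondrial tyrosyl enzyme. It had 7.10 and 6.37 FPKM after siNCOA3 at 24 h and 48 h, 5.11 and 4.08 FPKM after siSHC1, and 5.35 and 5.17 FPKM in the siControl libraries. The siNCOA3 libraries were the 2 highest of the 6, and the siSHC1 library of 48 h was the lowest. YARS2 fell by 0.46 ± 0.11 on the log2 scale in siSHC1 relative to siNCOA3 (± SE, 2 libraries for each siRNA, limma adjusted p = 0.046, lower at both times). The call was lost without any 1 of the 6 libraries, at adjusted p from 0.067 to 0.26 (limma), with values from -0.53 to -0.40. It was also lost without scaling (limma adjusted p = 0.056) and without the filter on low values (limma adjusted p = 0.11). In simulated libraries false calls exceeded the share that the threshold allows, which bears on an adjusted p this close to it.

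MARS2 had the second largest value, -0.42 ± 0.15, with 4.35 and 3.76 FPKM after siSHC1 against 5.72 and 5.88 FPKM after siNCOA3 (± SE, 2 libraries for each siRNA, limma adjusted p = 0.11). AARS2 stood at -0.38 ± 0.11, with 5.58 and 4.65 against 6.95 and 7.03 FPKM (limma adjusted p = 0.080). Neither gene's libraries overlapped. Among the cytosolic genes CARS stood at 0.32 ± 0.12, with 38.4 and 36.6 FPKM after siSHC1 against 30.1 and 29.8 FPKM after siNCOA3. VARS stood at -0.26 ± 0.08, with 75.7 and 68.0 against 86.4 and 87.0 FPKM, and YARS at -0.26 ± 0.11, with 25.4 and 23.7 against 29.9 and 29.7 FPKM. None of these 3 passed. With 1 library left out, MARS2 stood at -0.24 (without siNCOA3 at 48 h), CARS at 0.19 (without siSHC1 at 24 h) and YARS at -0.14 (without siSHC1 at 48 h). The summed level of the 17 mitochondrial synthetases was 208 and 211 FPKM after siNCOA3, 195 and 182 FPKM after siSHC1 and 194 and 191 FPKM in siControl, after scaling. The sum of the cytosolic genes was 6.05 and 5.92 times as large after siNCOA3, 6.71 and 6.76 times after siSHC1 and 6.61 and 6.998 times in siControl. Enzyme by enzyme, the fitted change after siNCOA3 was lower for the cytosolic than for the mitochondrial gene in 12 of the 14 amino acids with such a pair (median -0.23), with histidine (0.41) and valine (0.01) the exceptions. In siSHC1 against siNCOA3 the cytosolic gene had the higher value in 10 of the 14 (median 0.16). Both comparisons use the same siNCOA3 libraries, with opposite sign, so their counts and medians are not independent of each other.

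**Figure D3:**
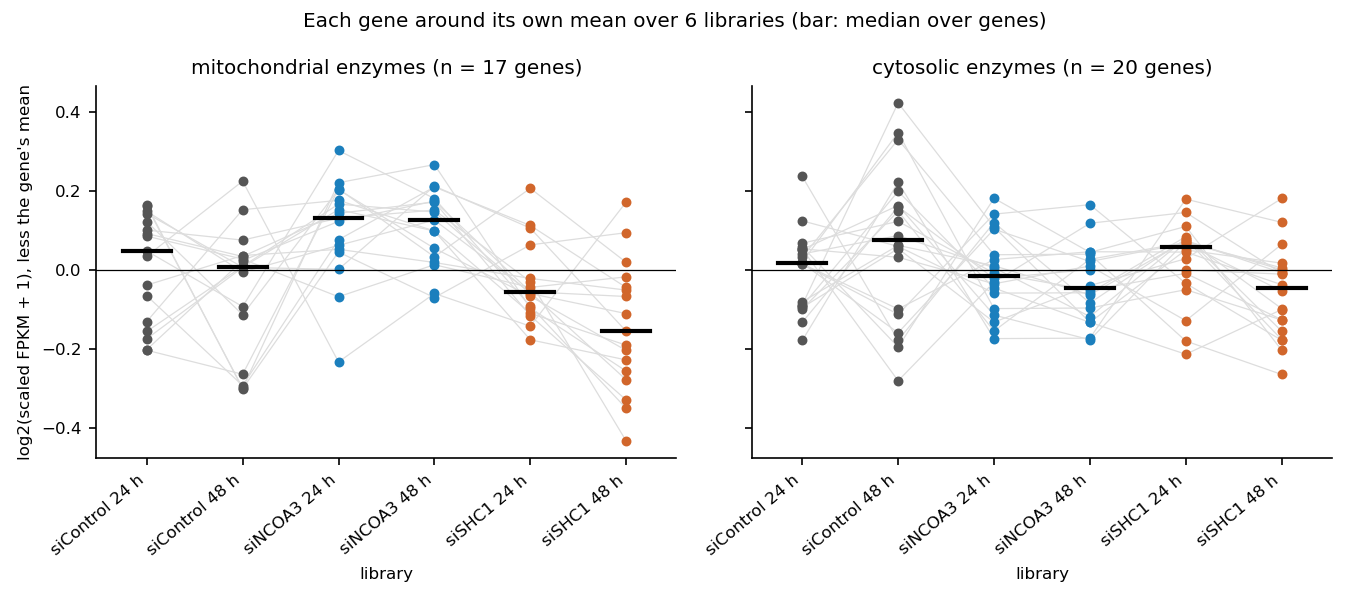
Log2(scaled FPKM + 1) of each synthetase in each library, less the gene's own mean over the 6 libraries, with mitochondrial genes on the left, cytosolic genes on the right and bars at the median. The mitochondrial median is 0.13 in both siNCOA3 libraries and -0.06 and -0.15 in the siSHC1 libraries of 24 h and 48 h, and 15 of 17 mitochondrial genes lie above their own mean in each siNCOA3 library.

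The comparison of 48 h with 24 h asks what changed with time in all 3 arms. Of the 37 genes 0 were called (limma adjusted p under 0.05), where 0.0256% of all genes were (0.0171% higher and 0.00855% lower). At an unadjusted p under 0.05 there were 3 of 37, where 14.1% of all genes were: HARS2 was higher, against 7.79% of all genes, and FARSB and KARS lower, against 6.33%. The fitted change lay above 0 in 9 of 20 cytosolic genes, with a median of -0.006, and in 7 of 17 mitochondrial genes, with a median of -0.08, where 49.5% of all genes lay above 0. These counts were 4 and 3 without either siControl library. FARSB, the beta subunit of the cytosolic phenylalanyl enzyme, was lower at 48 h in each arm, at 22.9, 22.8 and 21.9 FPKM at 24 h and 18.4, 19.4 and 18.1 FPKM at 48 h, a fitted change of -0.29 ± 0.08 (SE, n = 3 libraries per time, limma adjusted p = 0.29). KARS, the lysyl enzyme, was lower in each arm as well, at 62.7, 73.7 and 69.5 and then 56.7, 66.3 and 55.4 FPKM, a fitted change of -0.23 ± 0.07. DARS was higher in each arm, at 96.5, 102 and 113 and then 116, 107 and 124 FPKM, a fitted change of 0.13 ± 0.06. Of the mitochondrial genes MARS2 stood at -0.19 ± 0.12 and SARS2, the seryl enzyme, at -0.18 ± 0.11, each led by the siControl arm, in which MARS2 went from 5.04 to 3.69 and SARS2 from 12.1 to 9.26 FPKM. Without either siControl library both stood between -0.06 and -0.04. MARS2 stood at -0.31 without either siNCOA3 library and SARS2 at -0.29 without either siSHC1 library. In all, 2 of 37 genes were higher at 48 h in all 3 arms, where 19.1% of all genes were, and 7 were lower, FARSB, KARS and HARS among them, where 19% were.

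HARS and HARS2, the cytosolic and mitochondrial histidyl enzymes, are close paralogues that start head to head. HARS2 was the only mitochondrial gene higher at 48 h in all 3 arms, and HARS was lower in all 3. HARS2 had 9.93, 8.73 and 9.28 FPKM at 24 h and 12.4, 9.87 and 11.7 FPKM at 48 h, a fitted change of 0.23 ± 0.08 (SE, n = 3 libraries per time, limma adjusted p = 0.32). HARS had 43.2, 49.6 and 47.9 and then 41.3, 46.4 and 43.7 FPKM, a fitted change of -0.13 ± 0.06. After siNCOA3 the pair also had opposite signs, with HARS2 at -0.28 ± 0.10 and HARS at 0.13 ± 0.08, neither of which passed. HARS2 was the mitochondrial gene with the largest fitted value below 0 after siNCOA3. How reads were shared between these paralogues, and whether strand was used in quantification, was stated nowhere in the sources used. The start sites are separated by 84 bases on chromosome 5, shown in full because they are all that lies between the 2 genes.
Between HARS and HARS2 (RefSeq, GRCh38.p14, chr5:140691371-140691454, plus strand, the direction of HARS2): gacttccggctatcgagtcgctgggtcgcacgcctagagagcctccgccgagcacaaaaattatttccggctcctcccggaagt
The stretch is 59.5% G or C and holds 9 CG pairs, and the TGATGNAA motif was not found in either promoter window.

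**Figure D4:**
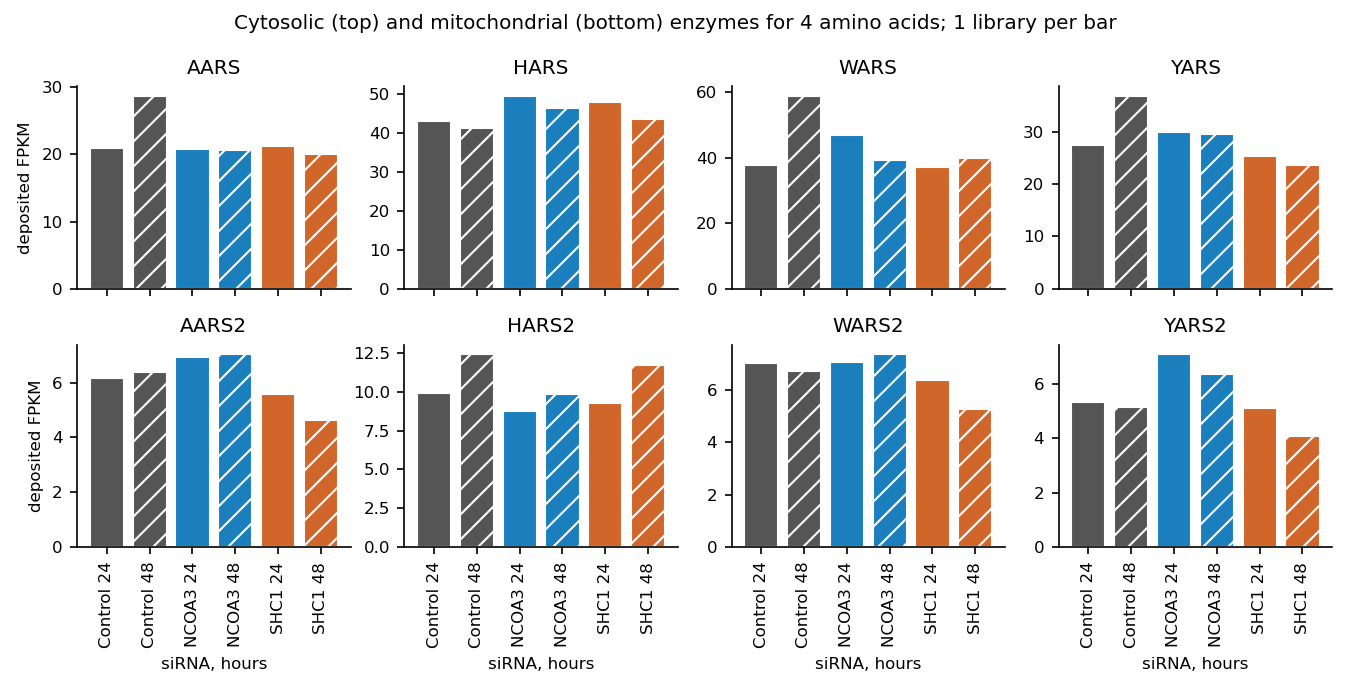
Deposited FPKM of the cytosolic (top) and mitochondrial (bottom) enzymes for alanine, histidine, tryptophan and tyrosine, with 1 bar per library (plain bars 24 h, hatched bars 48 h). AARS, WARS and YARS are highest in siControl at 48 h, YARS2 is highest in the siNCOA3 libraries, and HARS2 is higher at 48 h in every arm while HARS is lower.

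The arms differed in their course from 24 h to 48 h, and the cytosolic genes divided along the list of known ATF4 targets. That list, like the other gene lists, was chosen with earlier results of these data known. The division is therefore a description and not independent support. In the siControl arm 11 of the 12 synthetases on that list were higher at 48 h, with a median log2 difference of 0.27, and 1 of the other 8 cytosolic genes was higher, with a median of -0.15, while 48.8% of all genes were higher. In the siNCOA3 arm these counts were 6 of 12 and 5 of 8, with medians of -0.02 and 0.02, where 50% of all genes were higher, and in the siSHC1 arm they were 1 of 12 and 2 of 8, with medians of -0.07 and -0.13, where 50.7% were. Each arm has 1 library at each time, so that the difference between the arms has no replicate check and was not tested. The siControl library of 48 h held the highest value of the 6 libraries for 10 of the 12 genes (AARS, CARS, GARS, IARS, LARS, MARS, NARS, SARS, WARS and YARS) and for 0 of the other 8, where 14.8% of all tested genes were highest in that library. It held the lowest value for 4 of the other 8 (FARSA, FARSB, HARS and RARS) and for 0 of the 12, where 17.3% of all tested genes were lowest in that library.

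WARS made the largest step, from 37.9 FPKM at 24 h to 59.0 FPKM at 48 h in siControl, against 47.1 and 39.3 FPKM in the siNCOA3 arm and 37.1 and 39.97 FPKM in the siSHC1 arm. CARS, the cysteinyl enzyme, went from 27.8 to 40.1 FPKM in siControl, from 30.1 to 29.8 FPKM in the siNCOA3 arm and from 38.4 to 36.6 FPKM in the siSHC1 arm. GARS, the glycyl enzyme of both compartments, went from 68.7 to 91.3 FPKM in siControl, from 76.7 to 71.4 and from 81.3 to 78.9 FPKM in the other arms. SARS, the seryl enzyme, went from 51.1 to 68.1 FPKM in siControl, from 59.7 to 60.1 and from 60.1 to 59.2 FPKM in the other arms. In CARS and SARS the siControl library of 24 h was the lowest of the 6 and that of 48 h the highest, and in GARS the siNCOA3 library of 48 h was the lowest. Of the 8 genes with the TGATGNAA motif in their promoter window, 5 made a step above 0.1 on the log2 scale in siControl (AARS, CARS, GARS, MARS and NARS). IARS, TARS and YARS2, which hold the motif too, stood at 0.05, -0.06 and -0.14. EPRS, SARS and WARS, whose windows lack it, stood at 0.14, 0.29 and 0.51. LARS and YARS, without a window, stood at 0.06 and 0.30.

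**Figure D5:**
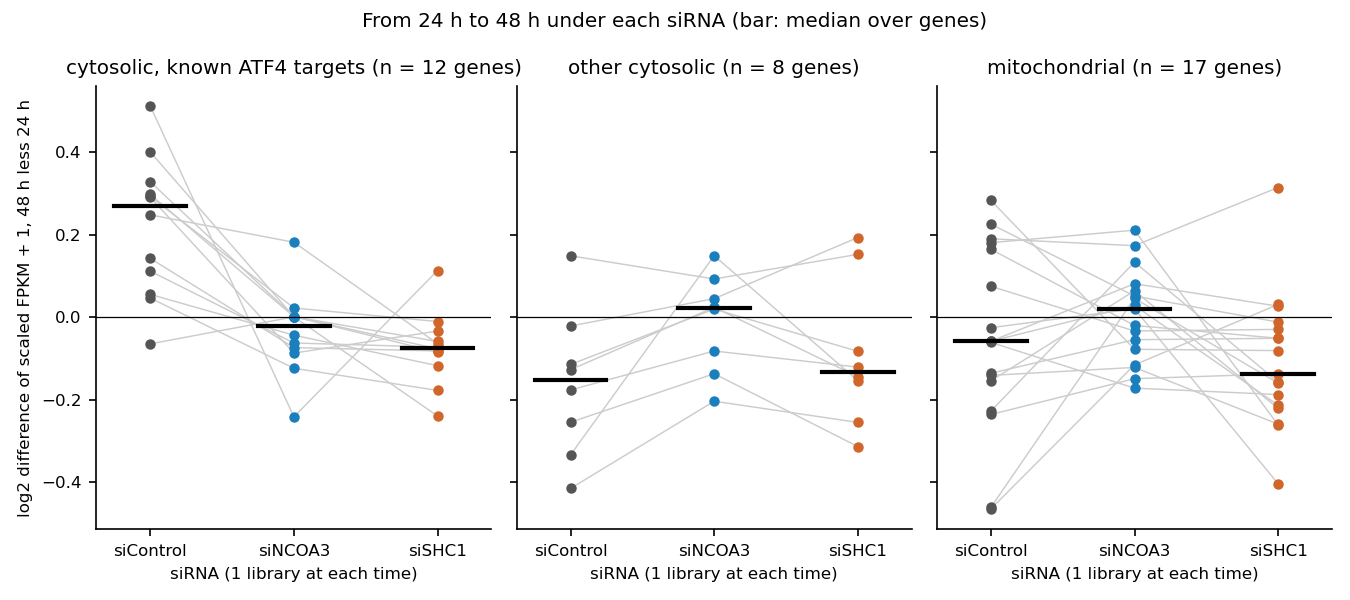
Log2 difference of scaled FPKM + 1 between the 48 h and the 24 h library of each siRNA, for the 12 cytosolic synthetases known as ATF4 targets, the other 8 cytosolic and the 17 mitochondrial genes; lines join 1 gene and bars mark medians. The first group has a median of 0.27 in siControl and of -0.02 and -0.07 after siNCOA3 and siSHC1.

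The same split was seen at 48 h against siControl, which uses the same library and the same list. At 48 h 0 of the 12 genes on the ATF4 list were higher than siControl after siNCOA3 (median -0.25) and 0 of 12 after siSHC1 (median -0.18), where 50.8% and 51.6% of all genes were higher, and 6 of the other 8 were higher after each. At 24 h the counts on the list were 6 and 7 of 12, with medians of -0.02 and 0.03, where 50.3% and 50.1% of all genes were higher. In the fit over both times the list had a median of -0.14 after siNCOA3, with 0 of 12 above 0. After siSHC1 the median was -0.07, with 3 of 12 above 0. Of the 12 genes 0 were called in either comparison (limma adjusted p under 0.05). At an unadjusted p under 0.05 there were 2 after siNCOA3 and 1 after siSHC1, where 10.5% and 26.2% of all genes were.

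Other genes of the amino acid response, a list of 29 genes without synthetases of which 26 were tested, had a median difference from 24 h to 48 h of 0.18 in siControl, with 18 of 26 higher, of -0.01 in the siNCOA3 arm and of -0.12 in the siSHC1 arm. ASNS, the asparagine synthetase and a standard ATF4 target, went from 21.2 to 42.7 FPKM in siControl, from 17.6 to 17.3 FPKM in the siNCOA3 arm and from 25.3 to 32.6 FPKM in the siSHC1 arm. ATF4 itself went from 71.2 to 95.1 FPKM in siControl, from 77.9 to 73.1 and from 90.4 to 84.1 FPKM in the other arms. Of the 26 genes 8 were lower at 48 h in siControl, PPP1R15A (-0.55), SLC7A11 (-0.49) and ATF5 (-0.38) among them. Of all genes 48.8% were higher at 48 h in that arm. After siNCOA3 0 of 26 were called (limma), where 0.111% of all genes were. At an unadjusted p under 0.05 there were 5 of 26, where 10.5% of all genes were. ASNS stood at -0.80 ± 0.19, CHAC1 at -0.53, PCK2 at -0.49 and SLC7A5 at 0.48. After siSHC1 VLDLR rose by 0.74 ± 0.11, and SLC7A5 and SLC3A2, the subunits of the transporter that brings large neutral amino acids such as leucine and tyrosine into the cell, fell by 1.26 ± 0.09 and 0.74 ± 0.13 (limma adjusted p = 0.0019 and 0.026). Of the 26 genes 1 was called higher there and 2 lower, where 3.15% and 3.36% of all genes were. In siSHC1 relative to siNCOA3, 3 of 26 were called higher (DDIT3, DDIT4 and VLDLR), where 5.35% of all genes were. SLC7A5 and SLC3A2 were the 2 called lower, where 4.59% of all genes were. The log2 differences at 24 h and 48 h were 0.52 and 0.43 in DDIT3, 0.61 and 1.20 in DDIT4, and 0.74 and 0.91 in VLDLR. They were -1.63 and -1.84 in SLC7A5, and -0.64 and -1.20 in SLC3A2.

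The partners of the synthetases were examined in the same fit. The 3 scaffold proteins of the multisynthetase complex gave 0 calls in any comparison (limma adjusted p under 0.05). AIMP2 after siNCOA3 and AIMP1 for time were under 0.05 unadjusted (limma), where 10.5% and 14.1% of all genes were. All 3 were lower at 48 h in each arm, as were 19% of all genes. The fitted values were -0.27 for AIMP1, -0.18 for EEF1E1 and -0.16 for AIMP2. In the siNCOA3 arm alone the differences were -0.02, -0.08 and -0.06 in the same order. The 8 synthetases of the complex had medians of -0.06 after siNCOA3 and 0.02 after siSHC1, and the 12 free cytosolic synthetases -0.14 and -0.06. By enzyme class, which reflects the fold of the catalytic domain, the 19 class I genes had medians of 0.04 and -0.07 and the 18 class II genes of 0.02 and -0.05.

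Among 12 genes for synthetase-like proteins and for amino acid conversion or editing on transfer RNA, 0 were called in any comparison (limma adjusted p under 0.05). In siSHC1 relative to siNCOA3, 4 of the 12 had an unadjusted p under 0.05, where 29.5% of all genes had, and 11 of 12 lay below 0, with a median of -0.12. PET112 (GATB), a subunit of the mitochondrial glutaminyl-tRNA amidotransferase, stood at -0.41 ± 0.10 (± SE, 2 libraries for each siRNA, limma adjusted p = 0.051). Mitochondrial translation factors, which work beside the mitochondrial synthetases, had a median near 0 there. Of 11 such genes 6 lay above 0 with a median of 0.01, and 0 were called (limma). At an unadjusted p under 0.05 there were 3 of 11, where 29.5% of all genes were. GFM2, an elongation factor homologue that acts in ribosome recycling, stood at 0.36 ± 0.10. TUFM, which brings charged transfer RNA to the mitochondrial ribosome, stood at 0.20 after siNCOA3. Among 9 genes for cytosolic elongation and tRNA export, EEF1A2 rose by 0.73 ± 0.10 after siSHC1 (limma adjusted p = 0.014). EEF1A2 is an isoform of the factor that takes charged transfer RNA to the ribosome. It was the 1 of 9 called there, where 6.5% of all genes were. After siNCOA3 0 of 9 were called (limma), and 8 of 9 lay above 0, with a median of 0.16, where 50.8% of all genes lay above 0. At an unadjusted p under 0.05, 4 of 9 were higher, against 4.78% of all genes, and 0 lower, against 5.75%. XPOT, the exporter of transfer RNA, was the 1 gene below 0 there and stood at -0.17 after either siRNA. At 24 h and 48 h it stood at -0.01 and -0.33 after siNCOA3 and at -0.06 and -0.28 after siSHC1.

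WARS differs from the other synthetases in its induction by interferon, and 10 interferon response genes were therefore set beside it. After siSHC1 8 of the 10 lay above 0, with a median of 0.18, where 50.7% of all genes lay above 0, while WARS stood at -0.32. Of the 10 genes 0 were called (limma), where 6.5% of all genes were. At an unadjusted p under 0.05 there were 4 of 10, where 26.2% of all genes were: 3 were higher, against 13.9% of all genes, and 1 was lower, against 12.3%. The lowest fitted value of the 10 was -0.53, and GBP1 stood at -0.32 at 24 h and -0.75 at 48 h. IFIT2 rose in siSHC1 relative to siNCOA3, by 0.83 ± 0.20 (limma adjusted p = 0.0499, with the same limit as for YARS2), and WARS stood at -0.14 there. IFIT2 was the 1 of 10 called in that comparison, where 9.94% of all genes were. From 24 h to 48 h the 10 genes had medians of 0.17 in siControl, 0.02 in the siNCOA3 arm and 0.40 in the siSHC1 arm, where WARS stood at 0.51, -0.24 and 0.11.

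The precision of the fit bounds what could be seen. The 95% interval of a fitted change after siNCOA3 reached a median of 0.21 on either side of the value for cytosolic genes and 0.26 for mitochondrial genes, on the log2 scale. A value that did not pass is therefore not shown to be unchanged.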

How the data were processed

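RNA of 6 MDA-MB-231 libraries was sequenced. Per the labels' protocols, RNA was taken up in Trizol and a stranded mRNA kit was used. STAR, Cufflinks, DESeq2 and the build hg19 are named, without roles or versions, per the submitters' processing notes. The authors deposited 1 table named for read counts whose values are FPKM: they are not whole, and the lowest values are smaller in longer genes. Fragment counts were not recovered, so no counting interval is given.

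Each library was divided by a factor, the median ratio to the geometric mean of 13878 genes above 0 in every library. Genes at 1 FPKM or more in 2 or more libraries were tested on log2(scaled FPKM + 1) with limma 3.58.1 in R 4.3.3 (trend and robust moderation). The model was additive in siRNA and time, used all 6 libraries and left 2 residual degrees of freedom, so its error includes any siRNA-by-time difference. P-values were adjusted by Benjamini-Hochberg over all genes tested within each of 4 comparisons, with a threshold of 0.05. Fold changes on this scale understate changes of low genes. The fit was tested on simulated data, in which the share of false calls was above the threshold.

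Values of 1 mitochondrial gene are not reported here, though it is counted. The members and the gene lists were chosen with earlier results of these data known. Named in full were called members, the 3 largest changes per compartment and comparison, and the 5 highest and 5 lowest levels. From related lists, called genes were named, or up to 4 with the largest change; ATF4, TUFM and XPOT, HARS beside HARS2, and the genes of the time course were added after their values were seen. Of 138 listed symbols 137 were matched to the table, GATB as PET112. Promoters came from RefSeq (GRCh38.p14), which differs from the authors' build and was used for sequence only. Alternatives were other scalings, pseudocounts, filters, moderation and terms, fewer libraries and each library left out. Python 3.11.15, pandas 2.3.3, numpy 2.4.6 and matplotlib 3.10.9 were used.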

Additional observations from a re-analysis of the deposited data

Results flagged for a closer look

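In 11 comparisons of a synthetase the difference between 2 siRNAs had opposite signs at 24 h and 48 h, by at least 0.1 on the log2 scale at each time. Each time has 1 library per siRNA, so the difference between the times was not tested. After siNCOA3 against siControl, WARS stood at 0.20 at 24 h and -0.56 at 48 h, SARS at 0.11 and -0.16, and SARS2 at -0.12 and 0.23. After siSHC1 against siControl, CARS stood at 0.36 and -0.10, GARS at 0.14 and -0.18, MARS at 0.17 and -0.14, SARS at 0.13 and -0.17, SARS2 at -0.10 and 0.39, and VARS2 at 0.28 and -0.16. In siSHC1 against siNCOA3, FARSA stood at 0.18 and -0.13 and VARS2 at 0.10 and -0.37. The siControl libraries are shared by the first 9 of these.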

How the results depend on the processing

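No synthetase was called after siNCOA3, after siSHC1 or with time under any alternative run (limma). The 1 call in siSHC1 against siNCOA3, YARS2, became 0 without scaling, without the filter, without the term for time, with the 4 libraries of the 2 siRNAs alone and, in a range from 0 to 0, with each library left out in turn; the cause was not tested. With a library left out, 1 arm rests on 1 library, which is assumed to vary like the others. The cytosolic less the mitochondrial median in that comparison was 0.28 and 0.31 with pseudocounts of 0.5 and 0.1, against 0.25, and ran from 0.24 to 0.29 with a library left out. For time it ran from -0.0077 to 0.15, for siNCOA3 from -0.26 to -0.10 and for siSHC1 from -0.01 to 0.15. The counts of genes above 0 were put through the same alternatives after the data were seen. Cytosolic genes above 0 after siNCOA3 were 8 without scaling. With equal library totals 4 cytosolic and 3 mitochondrial genes lay above 0 after siSHC1, and 7 cytosolic genes in siSHC1 against siNCOA3. These settings also moved all tested genes. Their median was 0.04 after siNCOA3 without scaling. With equal library totals it was -0.05 after siSHC1 and -0.03 in siSHC1 against siNCOA3. With a library left out the cytosolic counts ran from 5 to 11 (siNCOA3), 5 to 12 (siSHC1), 5 to 12 (siSHC1 against siNCOA3) and 4 to 12 (time), and the mitochondrial counts from 12 to 15, 3 to 7, 2 to 4 and 3 to 7. For time the low counts of 4 and 3 came without either siControl library. None of the largest changes named per comparison reversed its sign under these alternatives; other named genes were not put through them. The term for time already pairs the libraries of a time. The number of libraries limits the precision.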
